A study of Schizosaccharomyces pombe with 6 samples.

Results

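Cells of the fission yeast Schizosaccharomyces pombe overexpressing Spc1K49R were compared with cells carrying an empty vector, on the 2 arrays labelled Spc1K49R and the 2 labelled empty vector, 4 of the 6 arrays of the series. The arrays were chosen by their label alone. The other 2 arrays came from cells overexpressing Spc1 and entered only the alternatives named as such. The labels describe the empty-vector source as a wild strain. Nothing in the sources used here gives the promoter of the vector, the growth conditions or the fate of the chromosomal copy of the gene. The labels call the 2 arrays of each group biological replicates and say no more of how the cultures were kept apart, so every p-value measures only the spread between these samples.

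Spc1, also named Sty1 and encoded by sty1, is the stress-activated MAP kinase of fission yeast. It is phosphorylated by the MAP kinase kinase Wis1, enters the nucleus, and acts on transcription factors such as Atf1, which drive stress genes and contribute to the switch to mating and meiosis when nutrients run out. K49R stands for a lysine to arginine substitution, and the substituted protein has been used in fission yeast as a form without kinase activity. The array carried probe sets for both S. pombe and the budding yeast Saccharomyces cerevisiae. Each value is a log2 signal set by the authors to a median of 0 over the 6 arrays for each probe set, so it orders arrays for 1 probe set and gives no level to compare between genes.

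Of 8960 probe sets tested, 76 carried an S. pombe name, 113 an S. cerevisiae name, and 8771 had no name in the files used here. All names came from the authors' deposited tables of differences, so the study itself had selected the named genes, and on these arrays. Over the tested probe sets the SD of the values was 0.13 and 0.11 on Spc1K49R replicates 1 and 2, against 0.31 and 0.16 on empty vector replicates 1 and 2. The state of the RNA was read from 6 S. pombe control genes with probe sets at both ends. Their mean 5' minus 3' difference was 0.07 and 0.34 with Spc1K49R, against -0.56 and 0.40 with empty vector. Empty vector replicate 1 therefore stood apart from the other 3 arrays on both measures, and results that rest on it are given with and without it. Empty vector replicate 2 had the lowest signal for S. pombe ribosomal RNA, with a median of -1.36 over 7 control probe sets, against 0.06 on replicate 1 and 0.04 and -0.25 on the Spc1K49R arrays. The 5' minus 3' difference entered an alternative fit of all 6 arrays as a covariate, and some differences changed in size there, as given at the end. Beyond that, whether either property had a part in the differences below was not tested.

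The overexpressed gene was raised on only 1 of the 2 Spc1K49R arrays. For sty1 the log2 value was 1.20 on the array labelled Spc1K49R replicate 1 and -1.37 on the array labelled Spc1K49R replicate 2, against -1.07 and -1.04 with empty vector. Spc1K49R replicate 1 lay 2.25 log2 units above the empty-vector mean, a 4.76-fold higher signal. Spc1K49R replicate 2 lay below both empty-vector arrays, at -0.31 from their mean. The group means were -0.09 ± 1.81 with Spc1K49R and -1.06 ± 0.02 with empty vector (SD, n = 2 each). Their difference of 0.97 (SE 0.87) was smaller than the spread between the Spc1K49R arrays and had an unadjusted p of 0.321 with limma. Without the array labelled Spc1K49R replicate 2 the difference was 2.25, and without replicate 1 it was -0.31. These are values of single arrays against the 2 controls and are given with no test. The probe set reads sty1 RNA from any source, and vector and chromosomal transcripts were not told apart here. The array labelled Spc1K49R replicate 2 thus went against its label for sty1, and whether it holds RNA of cells overexpressing Spc1K49R was not tested. Below, Spc1K49R replicate 2 means the array so labelled, and every Spc1K49R mean averages an array with raised sty1 and an array without it.

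Apart from sty1, the 2 Spc1K49R arrays were close to each other. Their root mean square difference over the tested probe sets was 0.186 log2 units, against 0.414 between the 2 empty-vector arrays. Only 28 probe sets lay 1 log2 unit or more apart between the Spc1K49R arrays, 6 of them higher on replicate 1 and 22 lower, whereas 272 did so between the empty-vector arrays. In size of the difference between the Spc1K49R arrays sty1 ranked 2 of 8960, at 2.57 log2 units or 5.92-fold. The probe set ahead of it, at 2.58, had no name.

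**Figure D1:**
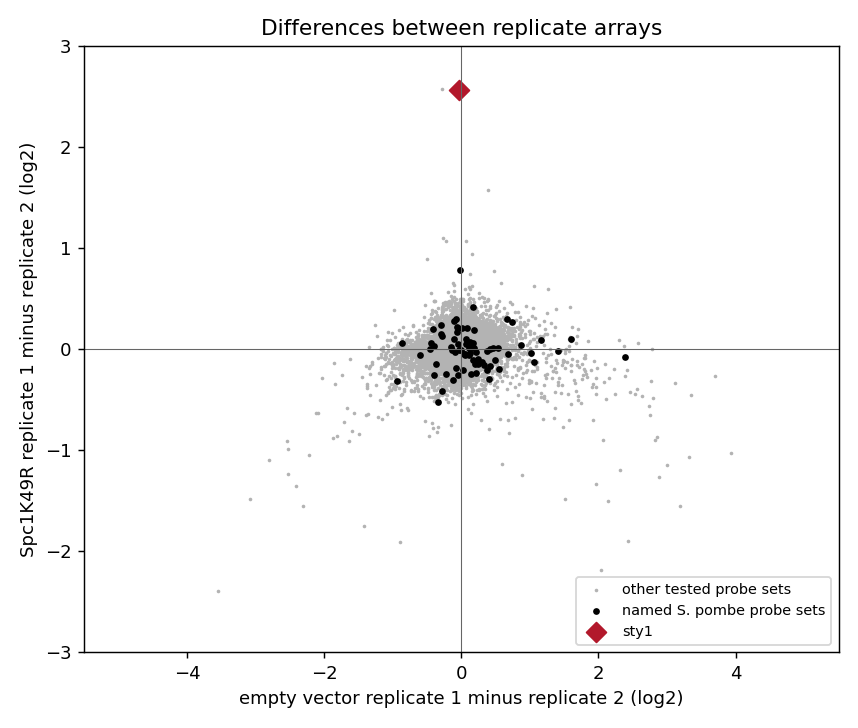
Each point is 1 probe set, placed by empty vector replicate 1 minus replicate 2 on the horizontal axis and Spc1K49R replicate 1 minus replicate 2 on the vertical axis, both in log2 units. The red diamond is sty1, at 2.57 on the vertical axis, and all other named S. pombe probe sets (black) lie within 0.78 of 0 there.

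Among named S. pombe probe sets other than sty1 the largest difference between the Spc1K49R arrays was 0.78, for SPCC576.01c (xan1), which the deposited table describes as a predicted sulfonate dioxygenase. Its values were 0.69 and -0.09 with Spc1K49R, against 0.09 and 0.11 with empty vector. Replicate 1 lay above both empty-vector arrays for this gene and replicate 2 below them, as for sty1. The pheromone receptor gene mam2 followed, 0.42 higher on replicate 1, and then SPAC683.02c, a zinc finger gene, and SPAC27D7.09c, of the But2 family, 0.30 and 0.29 higher on replicate 1. In the other direction, replicate 1 minus replicate 2 was -0.52 for rec8, the meiotic cohesin gene, -0.41 for klp8, a kinesin-like gene, and -0.31 for SPBC800.11, a predicted nucleoside hydrolase gene. The probe set shared by SPBPB10D8.04c, SPBPB10D8.05c, SPBPB10D8.06c and SPBPB10D8.07c, predicted membrane transporter genes, was next at -0.30, followed by SPAC13G7.12c (eki1), a predicted choline kinase gene, at -0.29. The groups overlapped for rec8, klp8, SPBC800.11, SPAC13G7.12c and SPAC27D7.09c.

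No probe set passed the test. In the limma fit of the 4 arrays the adjusted p was under 0.05 for 0 of 8960 probe sets (0%), its lowest value rounding to 1. An unadjusted p under 0.05 was reached by 92 (1.03%), 50 higher (0.558%) and 42 lower (0.469%) with Spc1K49R, fewer than the 448 that the threshold alone would give. Both Spc1K49R arrays lay above both empty-vector arrays for 1079 probe sets (12.0%) and below them for 1046 (11.7%). The root mean square of the difference between group means was 0.166, below the 0.227 that the spread between replicates of the 2 groups gives as the standard error of such a difference. With 2 arrays in each group an exact permutation test cannot reach 0.05, and single genes were not tested that way.

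The calls depended on which empty-vector array was used. Without empty vector replicate 2, so that replicate 1 stood alone as control, 112 probe sets passed an adjusted limma p of 0.05, 35 higher and 77 lower, and 2083 had an unadjusted p under 0.05. Without empty vector replicate 1, 0 passed and 428 had an unadjusted p under 0.05. In both fits the remaining control array is assumed to vary like the Spc1K49R arrays, which lay closest together. With only Spc1K49R replicate 2 the unadjusted count was 9, and with only Spc1K49R replicate 1, the array with raised sty1, it was 35. The 6 named S. pombe probe sets among the 112 were those of for3 and sro1, higher with Spc1K49R, and of mug131, SPBPB2B2.08, SPAC13G6.13 and the 2 matmi copies, lower. For mug131, SPBPB2B2.08, SPAC13G6.13 and matmi the sign turned when empty vector replicate 2 was the control in place of replicate 1.

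**Figure D2:**
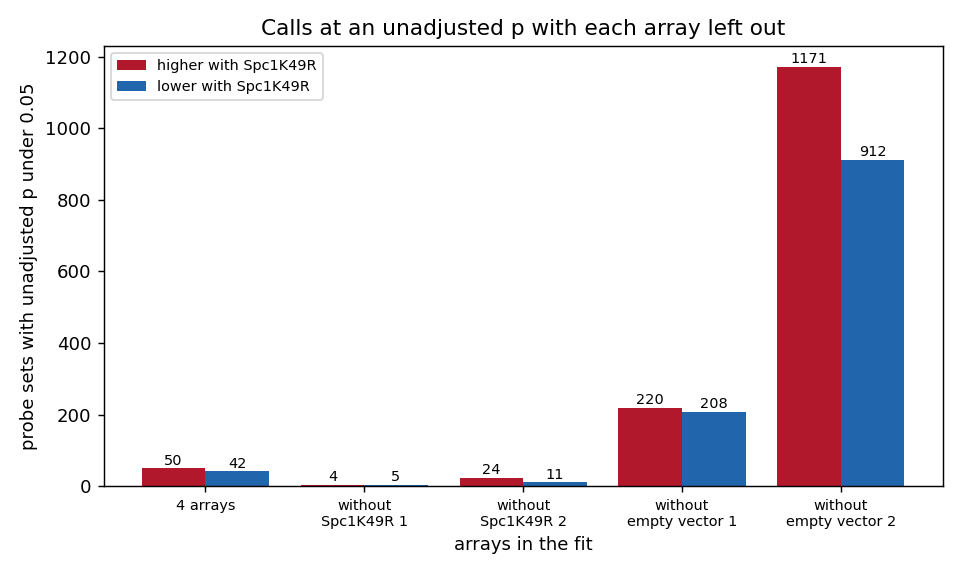
Bars give the number of the 8960 probe sets with an unadjusted limma p under 0.05, higher (red) or lower (blue) with Spc1K49R, for all 4 arrays and with each array left out. The counts were 50 and 42 with all 4 arrays, and 1171 and 912 when empty vector replicate 1 was the only control.

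The authors' deposited table for this comparison has 132 rows, of which 35 are S. pombe, 92 S. cerevisiae and 5 controls. It names the groups mutant C and wild type, and these were matched to Spc1K49R and empty vector through their values. Over the 129 rows present in the value table its log2 differences correlated at 0.974 with Spc1K49R minus empty vector and at 0.336 with Spc1 minus empty vector. The authors' deposited table gives 23 S. pombe probe sets as up and 12 as down, and 40 S. cerevisiae probe sets as up and 52 as down. The cells were S. pombe, so the S. cerevisiae rows serve here as background, and whether any of them reads a similar S. pombe transcript was not tested. In the value table, the arrays of the groups did not overlap for 35 of the 35 S. pombe probe sets of that list. The same held for 75 of 89 S. cerevisiae ones and for 23.7% of all tested probe sets. An unadjusted limma p under 0.05 was reached by 27 of the 35, 27 of the 89 and 1.03% of all tested probe sets. Because the list was selected on this contrast, these counts describe the selection and support nothing further.

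The 41 S. pombe probe sets named only through the other deposited tables are less tied to this contrast, though those tables share arrays with it. For 4 of these both Spc1K49R arrays exceeded the controls and for 6 both were below, together 24.4%, near the 23.7% of all tested probe sets. One of the 41, meu15, had an unadjusted limma p under 0.05, as did 1.03% of all tested probe sets.

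Differences of the 35 listed S. pombe probe sets were small, between 1.17-fold and 1.78-fold. The 23 higher ones had medians of 0.18 and 0.17 on Spc1K49R replicates 1 and 2, against -0.22 and -0.16 on empty vector replicates 1 and 2. The median difference was 0.42, against 0.00 over all tested probe sets, with standard errors of 0.09 to 0.28 in the higher group. Replicate 1, with raised sty1, was the higher Spc1K49R array for 13 of the 23 and replicate 2 for 10. The 12 lower ones had medians of -0.12 and -0.07 with Spc1K49R, against 0.30 and 0.17 with empty vector, and a median difference of -0.32.

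Genes of the pheromone response and mating formed the largest group with 1 direction. In fission yeast, nitrogen starvation lets M and P cells exchange pheromones, and a G-protein and MAP kinase cascade then turns on mating and meiosis genes. The list had 8 named probe sets of 7 genes, and for all 8 both Spc1K49R arrays exceeded both controls, as for 12.0% of all probe sets. The study picked all 8 on this contrast, so neither their number nor their direction is independent evidence. Their median difference was 0.49, a 1.40-fold median over a range of 1.20-fold to 1.47-fold. Without empty vector replicate 1 the median difference was 0.32, and 3 of the 8 differences were smaller by over 1.5 times. With all 4 arrays, unadjusted limma p-values ran between 0.0132 and 0.0466. None passed after adjustment.

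Several of these genes are active only in M cells. The precursor gene of M-factor, mfm1, had 0.37 and 0.37 with Spc1K49R, against -0.36 and 0.09 with empty vector, on its first probe set. On the second it had 0.40 and 0.35 with Spc1K49R, against -0.36 and 0.08 with empty vector. On both, the 2 Spc1K49R arrays lay within 0.06 of each other, and the lower of the 2 controls was empty vector replicate 1. The differences of 0.51 (SE 0.18) and 0.52 (SE 0.17) were 0.28 and 0.30 without empty vector replicate 1. A second M-factor gene, mfm3, had 0.13 and 0.07 with Spc1K49R, against -0.13 and -0.30 with empty vector, a difference of 0.31 (SE 0.11). The mfm genes encode near-identical peptides, so their probe sets may read each other's transcripts.

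The receptor of M cells for P-factor is encoded by mam2, which had 0.42 and 0.00 with Spc1K49R, against -0.26 and -0.43 with empty vector. Its difference of 0.56 (SE 0.18) was 0.35 without the array with raised sty1. The M-cell agglutinin gene mam3 had -0.01 and 0.01 with Spc1K49R, against -0.27 and -0.26 with empty vector. Here the arrays of each group lay within 0.02 of each other, and the difference was 0.26 (SE 0.09). The genes of P cells on the list, such as map2 and map3, had no named probe set.

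Signalling genes shared by both cell types had the same order of arrays. For spk1, the MAP kinase gene of the pheromone cascade, the values were 0.30 and 0.10 with Spc1K49R, against -0.10 and -0.11 with empty vector. For rgs1, whose product dampens the pheromone G protein, they were 0.37 and 0.16 with Spc1K49R, against -0.16 and -0.25 with empty vector. The differences were 0.31 (SE 0.11) for spk1 and 0.47 (SE 0.12) for rgs1. Both had the higher Spc1K49R value on replicate 1. The meiotic regulator gene mei2 had 0.15 and 0.12 with Spc1K49R, against -0.58 and -0.19 with empty vector, and its difference of 0.52 (SE 0.16) was 0.32 without empty vector replicate 1. The probe set of the 2 copies of matmi, a mating-type gene of M cells outside the list, had 0.17 and 0.24 with Spc1K49R, against 1.88 and -0.52 with empty vector, so the Spc1K49R arrays lay between the controls.

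**Figure D3:**
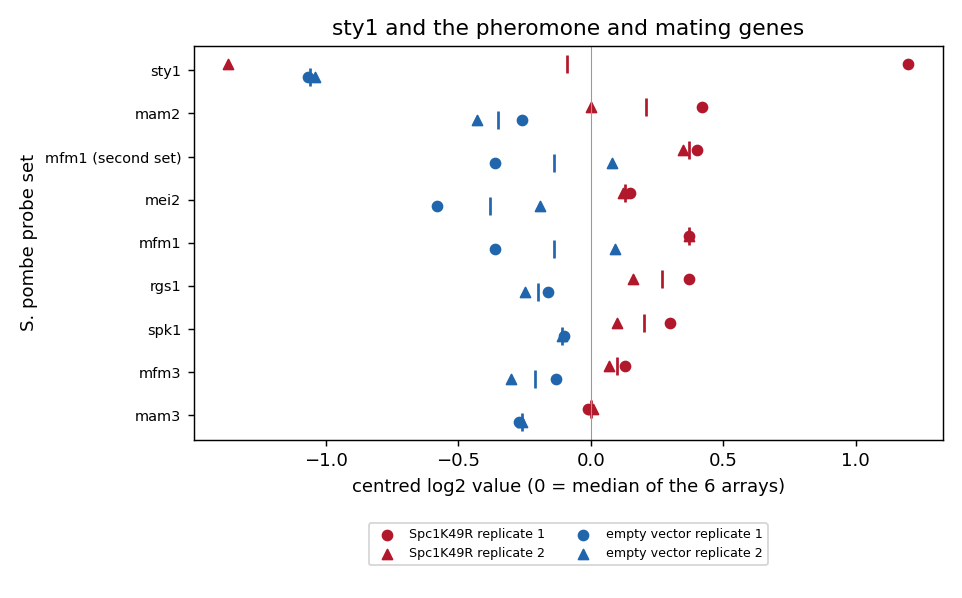
Centred log2 values of sty1 and the 8 named pheromone and mating probe sets on Spc1K49R (red) and empty-vector (blue) arrays, circles for replicate 1, triangles for replicate 2 and bars for group means. For sty1 only Spc1K49R replicate 1, at 1.20, lies above the controls, whereas both Spc1K49R arrays lie above both controls for the other 8.

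Of the 2 named genes in the cytoskeleton list, for3 had both Spc1K49R arrays above the controls, as did 12.0% of all tested probe sets. The other, nif1, had overlapping groups. The authors had picked for3 on this contrast but not nif1, so this contrast between the genes is not independent of the selection. The formin gene for3, whose product nucleates actin cables, had 0.15 and 0.21 with Spc1K49R, against -0.76 and -0.15 with empty vector. Its difference of 0.64 (SE 0.22) was 0.34 without empty vector replicate 1 and 0.95 without empty vector replicate 2. For dad3, which is in no list and is a gene of the DASH complex that links kinetochores to spindle microtubules, the values were 0.56 and 0.32 with Spc1K49R, against -0.23 and 0.06 with empty vector. Its difference was 0.53 (SE 0.16). For nif1, whose product restrains the mitotic inducer Cdr1, the difference was 0.13 (SE 0.12), and 0.03 to 0.23 with 1 array left out.

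The named S. pombe probe set with the smallest p was that of SPAC17G6.05c (bro1), a vacuolar protein sorting gene. It had 0.22 and 0.17 with Spc1K49R, against -0.21 and -0.17 with empty vector, a difference of 0.38 (SE 0.09) and an unadjusted limma p of 0.0117. The next were SPAC22H10.06c, annotated as dubious, at 0.45 (SE 0.11), rgs1, SPBC32H8.05 (llp1), at 0.40 (SE 0.10), dak2, SPCP1E11.10 (dhm1), an ankyrin repeat gene, at 0.42 (SE 0.11), and SPAC11D3.10. In these genes the arrays of each group lay within 0.21 of each other, and the differences were 0.33 to 0.47 in size. SPAC683.02c, dad3 and the SPBPB10D8 probe set completed the 10 S. pombe probe sets with the smallest p. The authors had picked all 10 on this contrast, so their rank and the closeness of their arrays are description only.

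Further regulators were close between replicates. The MADS-box transcription factor gene mbx2, a driver of flocculation, had 0.19 and 0.20 with Spc1K49R, against -0.11 and -0.08 with empty vector, a difference of 0.29 (SE 0.09). Outside the lists, and chosen after their values were seen, were git11 and gsk3. The gene git11, for the G-protein gamma subunit of the glucose-sensing cAMP pathway, had 0.12 and 0.11 with Spc1K49R, against -0.11 and -0.22 with empty vector, a difference of 0.28 (SE 0.10). In the lower direction, gsk3, a protein kinase gene, had -0.03 and 0.03 with Spc1K49R, against 0.28 and 0.22 with empty vector, and differed by -0.25 (SE 0.09).

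Besides sty1, 2 named S. pombe genes were tied to stress by the core stress response list or by their title. SPBC23G7.10c, a predicted flavin oxidoreductase gene of the core stress response list, had -0.12 and -0.09 with Spc1K49R, against 0.27 and 0.06 with empty vector, a difference of -0.27 (SE 0.11) that was -0.17 without empty vector replicate 1. The stress responsive orphan gene sro1 had 0.27 and 0.21 with Spc1K49R, against -0.74 and 0.13 with empty vector. Its difference of 0.54 (SE 0.30) was 0.11 without empty vector replicate 1. Of the list of kinase pathway genes, sty1 was the only one with a named probe set.

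Subtelomeric genes lie near chromosome ends and are often silent in growing cells. Their list was gathered by the prefix of gene identifiers, without a check of positions, and had 13 named probe sets. Both Spc1K49R arrays lay above both controls for 3, below for 7 and in neither order for 3, beside 12.0% above and 11.7% below among all tested probe sets. The median difference was -0.33, against 0.00 over all tested probe sets. The nitrogen, uracil and amino acid list below shares urg1, urg2 and SPAC1039.08 with this list, so they are counted in both. None of the 13 passed the test, and 9 of the 13 had been picked on this contrast. The lowest was SPAC869.02c (yhb1), which encodes a predicted nitric oxide dioxygenase, with -0.13 and -0.14 with Spc1K49R, against 0.65 and 0.13 with empty vector. Its difference of -0.53 (SE 0.20) was -0.26 without empty vector replicate 1. The orphan SPAC1F8.08 differed by -0.48 (SE 0.15), and by -0.31 without empty vector replicate 1. The SPBPB10D8 probe set differed by -0.47 (SE 0.14). The malic enzyme probe set named SPAC750.08c, whose public identifier is SPAC212.09c, differed by -0.40 (SE 0.13).

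A pair of adjacent genes in this list lay on the same side. SPAC11D3.09, a predicted agmatinase gene, and SPAC11D3.10 have no protein-coding gene between them in the gene table of assembly ASM294v3. SPAC11D3.09 had -0.13 and -0.03 with Spc1K49R, against 0.45 and 0.20 with empty vector, and SPAC11D3.10 had -0.17 and -0.22 with Spc1K49R, against 0.18 and 0.10 with empty vector. The differences were -0.40 (SE 0.13) and -0.33 (SE 0.09). The groups did not overlap for either gene, as for 23.7% of all tested probe sets, and neither difference passed the test. Both genes had been picked on this contrast, so their shared side is description only.

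The 3 subtelomeric probe sets on the higher side included SPCC569.02c, which had the largest difference of any named gene after sty1. It had 0.66 and 0.40 with Spc1K49R, against 0.06 and -0.67 with empty vector, a difference of 0.84 (SE 0.28) or 1.78-fold, which was 0.47 without empty vector replicate 2 and 1.20 without empty vector replicate 1. The probe set shared by SPAC212.08c and SPAC750.07c, GPI-anchored protein genes, differed by 0.51 (SE 0.17), and by 0.30 without empty vector replicate 2. The dihydroxyacetone kinase gene dak2, also in the sugar and glycerol list, had 0.14 and 0.17 with Spc1K49R, against -0.25 and -0.16 with empty vector, a difference of 0.36 (SE 0.09).

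**Figure D4:**
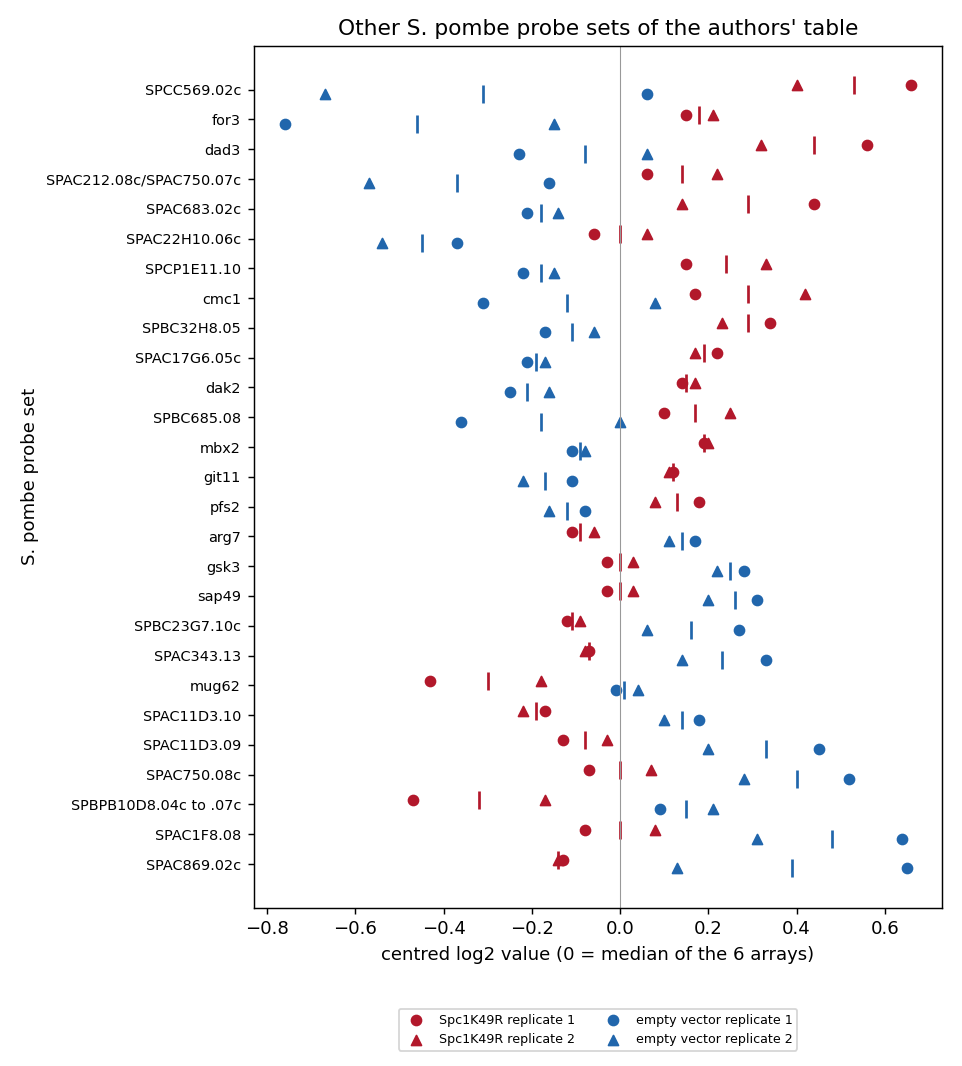
Centred log2 values of the 27 remaining S. pombe genes or shared probe sets that the authors' deposited table lists for this comparison, on Spc1K49R (red) and empty-vector (blue) arrays, circles for replicate 1, triangles for replicate 2 and bars for group means. Genes run downwards by difference, with SPCC569.02c (0.84) at the top and SPAC869.02c (-0.53) at the bottom, and no gene has overlapping groups. The list was selected on this contrast.

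Meiosis and sporulation genes, which are normally silent in growing cells, had 9 named probe sets. Both Spc1K49R arrays lay above both controls for mei2 alone, below for 3 and in neither order for 5, beside 12.0% above and 11.7% below among all tested probe sets. The median difference was -0.28, and 0.02 without empty vector replicate 1, on which 6 of the 9 were higher than on replicate 2. For meu15 the values were 0.00 and 0.00 with Spc1K49R, against 0.70 and 0.29 with empty vector, a difference of -0.49 (SE 0.16) that was -0.29 without empty vector replicate 1. The predicted AMP-binding enzyme gene mug62 had -0.43 and -0.18 with Spc1K49R, against -0.01 and 0.04 with empty vector, a difference of -0.32 (SE 0.12) that was -0.19 without Spc1K49R replicate 1. The third with both Spc1K49R arrays below the controls was mug124, at -0.28 (SE 0.14), which was -0.17 without empty vector replicate 1 and -0.16 without Spc1K49R replicate 1.

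The 6 named probe sets of nitrogen, uracil and amino acid genes differed by -0.22 to -0.03, with a median of -0.06. Both Spc1K49R arrays lay below both controls for 3 of them, arg7, urg1 and SPCC1450.07c, where 11.7% of all tested probe sets did. By limma, 0 had an unadjusted p under 0.05, against 1.03% of all tested probe sets. The argininosuccinate lyase gene arg7, of arginine synthesis, had -0.11 and -0.06 with Spc1K49R, against 0.17 and 0.11 with empty vector, a difference of -0.22 (SE 0.09). The arginase gene car1, of arginine breakdown, differed by -0.05 (SE 0.12). The uracil-regulated genes urg1 and urg2, with 1 protein-coding gene between them, differed by -0.20 (SE 0.11), or -0.11 without Spc1K49R replicate 2, and by -0.05 (SE 0.14), with SPCC1450.07c (dao1) at -0.06 and SPAC1039.08 at -0.03. In the mitochondrial list SPAC14C4.01c (atg43), a mitophagy receptor gene, differed by 0.25 (SE 0.14), by 0.13 without empty vector replicate 1 and by 0.12 without Spc1K49R replicate 2. In the same list hem14, of heme synthesis, differed by -0.04 (SE 0.11).

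Set directly against the Spc1 arrays, in limma on all 6 arrays, Spc1K49R had 0 probe sets with an adjusted p under 0.05, a smallest adjusted p of 0.717 and 91 probe sets at an unadjusted p under 0.05. In all, 4 S. pombe probe sets stood in the authors' deposited tables of both overexpression strains against wild type, which share the empty-vector arrays. With Spc1 replicates 1 and 2, mam3 had 0.47 and 0.18, SPAC22H10.06c 0.38 and 0.27, SPAC1F8.08 -0.77 and -0.11, and SPAC750.08c -0.46 and -0.12. The first 2 lay above both Spc1K49R arrays, and the other 2 below them. Spc1 replicate 1 had an SD of 0.82 over all tested probe sets, the widest of the 6 arrays.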

How the data were processed

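Total RNA was labelled as biotinylated cRNA, per the labels' protocols, and hybridised to Affymetrix Yeast_2 arrays, per the file headers. In the deposited value table the authors give log2 values. Their normalization is not stated in the labels or headers, and all 9133 probe sets have a median of 0 over the 6 arrays. The base was inferred from the deposited comparison tables. These give, per the file headers, a linear fold change (a ratio, also as a signed score), its log2 and an unadjusted p-value from a moderated test, after a filter on raw signal at the 10th to 100th percentile. Their 6 columns of group means were not used.

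The 173 control probe sets were left out. The other 8960 were fitted on 4 arrays, with 2 residual degrees of freedom, by lmFit and eBayes of limma 3.58.1 (R 4.3.3). Tests were two-sided, with Benjamini-Hochberg adjustment over all 8960. The Spc1 arrays were kept out of this fit because of the spread of Spc1 replicate 1. The number of arrays limits the precision. The fit was tested on simulated data. Of the 76 S. pombe probe sets, 74 matched the gene table of assembly ASM294v3, used for symbols and gene order.

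The genes named were sty1, members of 10 gene lists, the 10 S. pombe probe sets with the smallest p, the 6 with the largest difference in each direction, and the 5 with the largest difference between Spc1K49R replicates in each direction. Outside this rule, git11, gsk3, cuf2 and SPCC757.02c were chosen after their values were seen. The members and lists were chosen with earlier results of these data known. Alternatives were all 6 arrays, array centring, robust variances, array weights, a replicate block, a 5' minus 3' covariate, other thresholds, the authors' values and each array left out.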

Additional observations from a re-analysis of the deposited data

Results flagged for a closer look

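Control probe sets took no part in the tests. For 4 of the 173 both Spc1K49R arrays lay at least 0.5 log2 units above both empty-vector arrays, and all 4 read ribosomal RNA. The probe set for the 5' part of S. pombe 18S rRNA had 0.34 and 0.09 with Spc1K49R, against -0.67 and -1.23 with empty vector, a difference of means of 1.17. The older 18S probe set (18srRnaa) differed by 1.04, the S. cerevisiae 18S 5' probe set by 0.83 and a 25S probe set (25srRnad) by 0.71. Over the 7 S. pombe rRNA probe sets the median was 0.04 and -0.25 with Spc1K49R, against 0.06 and -1.36 with empty vector. By that median empty vector replicate 2 was the low array. For the 4 flagged probe sets both empty-vector arrays were low, for example -0.54 and -0.62 for 25srRnad. The part of rRNA carry-over in the differences of other probe sets was not tested.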

How the results depend on the processing

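The adjusted count of 0 stayed at 0 under each alternative run except without empty vector replicate 2, which gave 112 over all probe sets, 6 of them named S. pombe probe sets and 3 of these in a list, so the range with 1 array left out was 0 to 112. The unadjusted count of 92 was 8 with all 6 arrays, 24 with all 6 arrays and the 5' minus 3' covariate, 57 with the replicate number as a block, and 9 to 2083 with 1 array left out. It was 2 at an unadjusted p under 0.01, and 20 probe sets differed by 1 log2 unit or more. Groups that did not overlap numbered 2125, and 81 with a gap of at least 0.2. They numbered 4382 and 4526 with 1 Spc1K49R array left out, and 6157 and 7077 with 1 empty-vector array left out. A group of 1 array has no spread of its own, so these counts cannot be set beside 2125. The labels do not say that a replicate number marks a shared culture or day, and the replicate differences of the 2 groups correlated at 0.07 across probe sets. The block, robust variances, all 6 arrays and array weights leave the group differences as they are in this design, so they bear on the p-values only. The 5' minus 3' covariate and centring, which do move the differences, turned no sign among 52 named genes other than sty1. The authors' values turned none among the 28 listed. Sizes did change with the covariate in the fit of all 6 arrays. Some differences were smaller, such as for3 (0.64 to 0.32), dad3 (0.53 to 0.23) and SPCP1E11.10 (0.42 to 0.19). Others were larger, such as mam2 (0.56 to 0.66) and mfm3 (0.31 to 0.42). With 1 array left out, sty1 ran from -0.31 to 2.25, and the sign turned for 16 other named probe sets, whose lowest and highest differences follow. With 1 empty-vector array left out the range was -0.35 to 0.02 for mug20, -0.46 to 0.09 for meu1 and meu2, -0.56 to 0.11 for SPAC27D7.09c, -1.23 to 0.36 for mug131, -0.97 to 0.09 for spo6, -1.04 to 0.11 for SPBPB2B2.08, -1.67 to 0.72 for matmi, -1.18 to 0.23 for SPAC13G6.13, -0.20 to 0.10 for urg2 and -0.75 to 0.19 for SPBC800.11. With 1 Spc1K49R array left out it was -0.19 to 0.59 for SPCC576.01c, -0.14 to 0.07 for hem14, -0.16 to 0.06 for car1, -0.32 to 0.09 for klp8, -0.39 to 0.13 for rec8 and -0.13 to 0.06 for SPAC1039.08. The last 3 also turned without an empty-vector array, and urg2 without Spc1K49R replicate 2. The cause was not tested.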

Other observations

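A set of S. pombe genes was high on empty vector replicate 1 and low on empty vector replicate 2, with both Spc1K49R arrays between them. For mug131, a meiotically upregulated gene, the values were -0.19 and -0.29 with Spc1K49R, against 0.99 and -0.60 with empty vector. For SPAC13G6.13, an orphan, they were -0.27 and -0.25 with Spc1K49R, against 0.92 and -0.49 with empty vector. The subtelomeric gene SPBPB2B2.08 had -0.38 and -0.47 with Spc1K49R, against 0.62 and -0.54 with empty vector, and spo6, a regulatory subunit gene of a meiotic kinase, had -0.44 and -0.31 with Spc1K49R, against 0.59 and -0.46 with empty vector. The same held for cuf2, which encodes a transcription factor of meiosis, with -0.35 and -0.39 with Spc1K49R, against 0.35 and -0.53 with empty vector, and for SPCC757.02c, with -0.28 and -0.24 with Spc1K49R, against 0.37 and -0.65 with empty vector. Both cuf2 and SPCC757.02c were chosen after their values were seen. In each of these 6 genes the spread between the 2 controls exceeded the difference between the groups.

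The 20 probe sets that differed by 1 log2 unit or more were all lower with Spc1K49R and all without a name in the files used here. Their medians were -0.29 and 0.25 on Spc1K49R replicates 1 and 2, against 2.52 and -0.12 on empty vector replicates 1 and 2. All 20 were higher on empty vector replicate 1 than on replicate 2. All 20 were also lower on Spc1K49R replicate 1 than on Spc1K49R replicate 2. They were picked by the group means of these same values, so both orders are description only. Groups did not overlap for 2 of the 20, beside 23.7% of all tested probe sets. Without empty vector replicate 1 the median difference of the 20 was 0.09, against -1.18 with it.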
